A study of Homo sapiens with 4 samples.

Results

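Stretches of the human genome were examined in which called open chromatin came mostly from 1 cell line. They are the GALNT17 window on chromosome 7 (70.45 to 71.2 Mb, hg19), the window from the end of CACNA2D3 to WNT5A on chromosome 3 (55.0 to 55.55 Mb), and the DLC1 window on chromosome 8 (12.92 to 13.5 Mb). Members were all peaks with a summit inside these windows, and there were 118 of them among the 295586 peaks of the 4 lists on chromosomes 1 to 22 and X. The windows were picked because their calls differ between the lines in these same lists. Counts, widths and ranks are therefore a description, and no test is attached to them.

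Open chromatin was mapped by ATAC-seq, in which a transposase cuts accessible DNA and leaves sequencing adapters there. The 4 libraries came from unmodified, established human cancer lines: SKBR3 and T47D, labelled breast cancer, and HCT116 and RKO, labelled colorectal cancer. The label protocols name McCoy's 5A medium for SKBR3 as well as HCT116, DMEM for RKO and RPMI for T47D, with fetal bovine serum. Each line has 1 library, so a difference between lines has no replicate check. Depth after duplicate removal ran from 1057628 tags for HCT116 to 5450100 for T47D, with 3262240 for RKO and 4313512 for SKBR3. A missing call in HCT116, the shallowest library, weighs less than one elsewhere, and a region without a call in any line need not be closed there. The tissue labels were not checked against marker genes, as gene positions on hg19 were not used here.

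The 4 genes belong to different families. GALNT17, formerly WBSCR17, is a member of the polypeptide N-acetylgalactosaminyltransferases, the family that places the first sugar of mucin-type O-glycans in the Golgi. CACNA2D3 encodes an alpha-2-delta auxiliary subunit of voltage-gated calcium channels, and WNT5A encodes a secreted ligand that signals mainly through non-canonical WNT pathways governing cell polarity and movement. DLC1 encodes a GTPase-activating protein and is known as a tumour suppressor candidate deleted or silenced in several carcinomas. In RefSeq the coding genes listed next to WNT5A are LRTM1 and ERC2, and LRTM1 is also the one listed after CACNA2D3. This listing does not place the end of CACNA2D3, from which the window runs. GALNT17 lies between the coding genes AUTS2 and CALN1, and DLC1 between TRMT9B and C8orf48. In RefSeq GALNT17 spans 581.5 kb, DLC1 521.3 kb and CACNA2D3 952.0 kb, against 39.5 kb for WNT5A. Single peaks were not assigned to exons, introns or promoters.

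The promoters of GALNT17 and WNT5A, as RefSeq gives them on GRCh38.p14, are printed to show what kind of start these genes have. Each run is the 250 bases before an annotated start, 5′ to 3′ on the strand of the gene, with CpG dinucleotides in capitals.
GALNT17, chromosome 7, plus strand: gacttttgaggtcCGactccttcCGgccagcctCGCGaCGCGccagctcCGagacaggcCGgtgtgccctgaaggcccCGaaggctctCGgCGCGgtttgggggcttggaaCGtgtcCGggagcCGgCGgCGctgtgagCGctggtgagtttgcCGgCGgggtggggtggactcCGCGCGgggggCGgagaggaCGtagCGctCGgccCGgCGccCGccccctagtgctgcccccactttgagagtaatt
WNT5A, first start, chromosome 3, minus strand: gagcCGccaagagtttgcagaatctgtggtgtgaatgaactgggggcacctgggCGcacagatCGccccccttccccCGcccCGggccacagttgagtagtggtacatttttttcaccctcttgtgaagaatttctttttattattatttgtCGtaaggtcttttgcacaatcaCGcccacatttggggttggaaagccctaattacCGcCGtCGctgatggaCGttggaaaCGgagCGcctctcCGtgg
WNT5A, second start, chromosome 3, minus strand: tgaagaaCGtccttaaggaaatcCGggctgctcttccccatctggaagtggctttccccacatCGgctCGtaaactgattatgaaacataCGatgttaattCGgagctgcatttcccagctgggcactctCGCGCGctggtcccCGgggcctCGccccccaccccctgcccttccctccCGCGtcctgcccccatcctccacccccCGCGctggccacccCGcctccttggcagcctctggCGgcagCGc
The GALNT17 promoter holds 30 CpG dinucleotides at a GC content of 71.2%, against a median of 11 and 58% over 34943 RefSeq promoters of this length. The WNT5A promoters hold 14 and 18 at a GC content of 52.8% and 64.4%. The first WNT5A promoter was thus below the median GC content and the second above it. None of the 3 runs contains TGACTCA or TGAGTCA, the AP-1 motif bound by FOS and JUN proteins, on either strand, and 4.22% of the RefSeq promoters do. Nor does any contain TATAAA on either strand, which 10.8% of the RefSeq promoters do. Each run has 1 match to GCCNNNGGC (N for any base), the AP-2 motif, found in 19.7% of the RefSeq promoters. The start that RefSeq gives CACNA2D3 lies far from the end of that gene, and its promoter is not shown.

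Few peaks were called outside the cluster's own line, except by SKBR3 in the DLC1 window. The GALNT17 window held 36 SKBR3 peaks, 3 T47D peaks, 1 RKO peak and 0 HCT116 peaks. In the WNT5A and CACNA2D3 window there were 27 SKBR3 peaks, 4 of T47D, 1 of RKO and 0 of HCT116. In the DLC1 window RKO had 31 peaks, SKBR3 12, T47D 3 and HCT116 0. These counts come from lists of unequal length: SKBR3 has 111635 peaks, T47D 77458, RKO 66594 and HCT116 39899. Merged by overlap, the 118 peaks formed 106 regions, of which 96 were called in 1 line, 8 in 2, 2 in 3 and 0 in all 4. Regions were not merged outside the windows, so these numbers have no genome-wide share to compare with. The lack of HCT116 calls extended past the windows. No HCT116 peak lay within a stretch of 5.12 Mb around the GALNT17 window, 1.47 Mb around the WNT5A window and 3.77 Mb around the DLC1 window. HCT116 had no peak in 13.6% of windows as long as the GALNT17 window, and in 17.1% and 16.5% of those as long as the other windows. An empty window of these lengths was thus not rare in that list. How often it has peak-free stretches as long as those above was not counted.

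**Figure D1:**
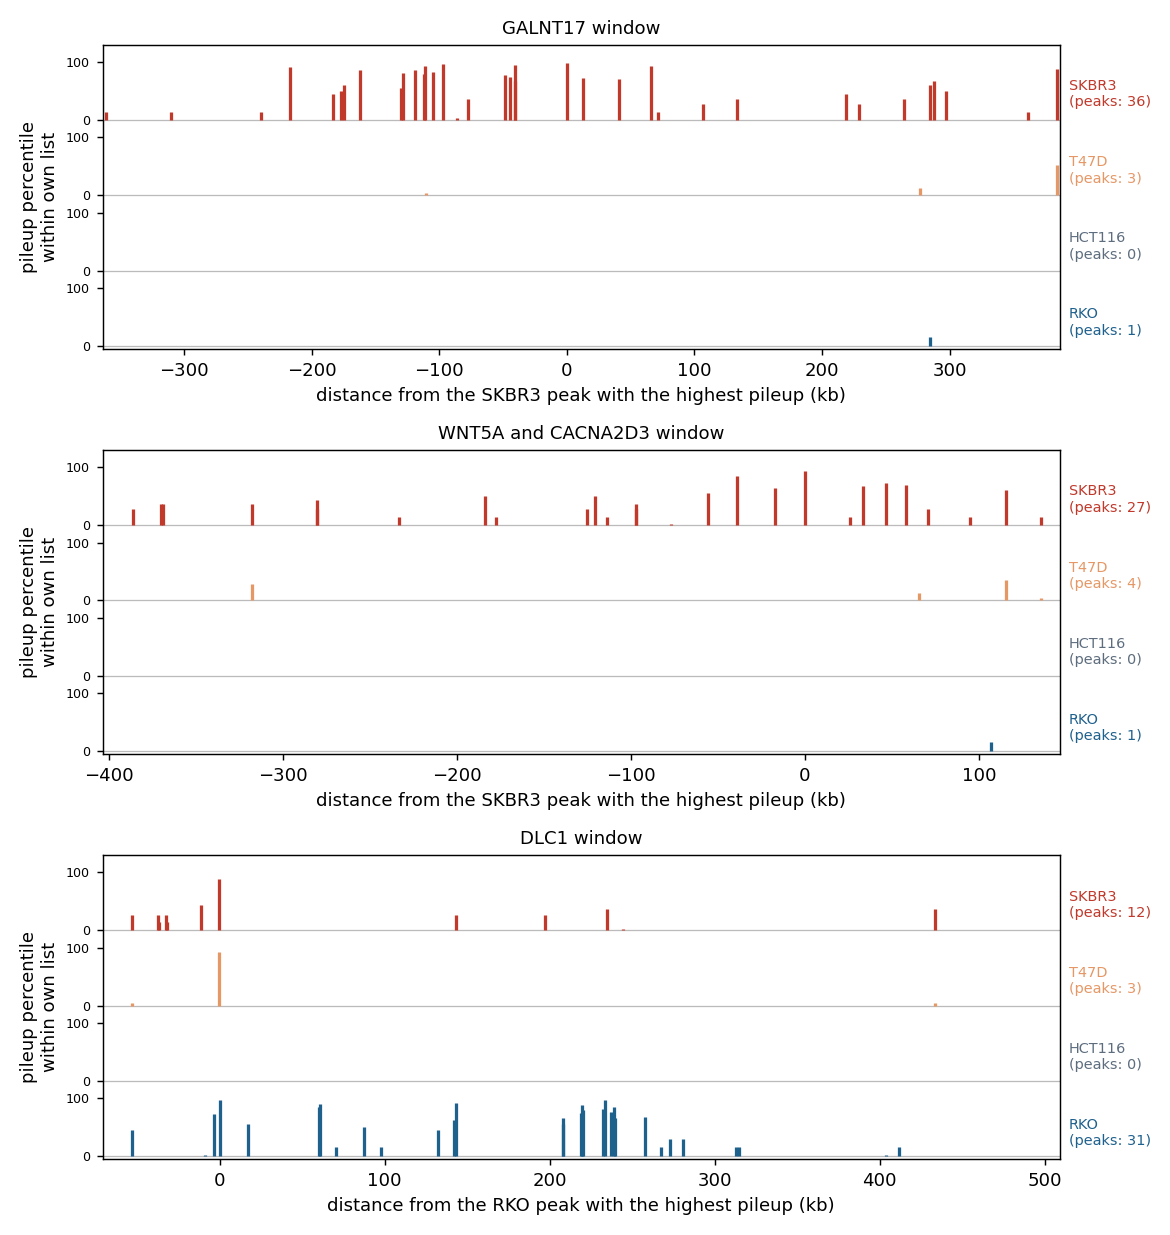
Called peaks in the 3 windows, 1 row per line. Each vertical line is a peak placed by its distance (kb) from the highest peak of the cluster's line, and its height is the percentile of its pileup within its own list. SKBR3 fills the first 2 windows with 36 and 27 peaks and RKO the DLC1 window with 31, while HCT116 has 0 in all 3.

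The SKBR3 counts at GALNT17 and WNT5A were moderate for SKBR3 itself, whereas the counts of the other lines were below their own medians. The 36 SKBR3 peaks of the GALNT17 window were above the SKBR3 median of 25 for windows of 750 kb, and 33.2% of 7655 windows held as many or more. T47D, with 3 peaks, was below its median of 15, and 93.1% of windows held as many or more. RKO, with 1 peak, was below its median of 14, and 99.3% held as many or more. In the WNT5A and CACNA2D3 window the 27 SKBR3 peaks compared with a median of 18, and 32.4% of 10408 windows reached that count. The T47D median there was 11 against 4 peaks, and 81.8% of windows held as many or more. The RKO median was 10 against 1 peak, and 98.3% held as many or more. The DLC1 window differed from these, since the 31 RKO peaks were also many for RKO. The RKO median for windows of 580 kb was 10, and 8.74% of 9877 windows held as many or more. SKBR3, with 12 peaks there, was below its median of 19, and 67.0% of windows held as many or more. For T47D, with 3 peaks there, it was 88.8%. Shortening every list to its 39899 strongest peaks left 16 SKBR3 peaks at GALNT17, 6 at WNT5A and CACNA2D3 and 18 RKO peaks at DLC1, with at most 1 peak in each other line. In the shortened SKBR3 list 24.1% and 47.7% of windows held as many or more as GALNT17 and WNT5A. In the shortened RKO list it was 13.0% for DLC1.

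**Figure D2:**
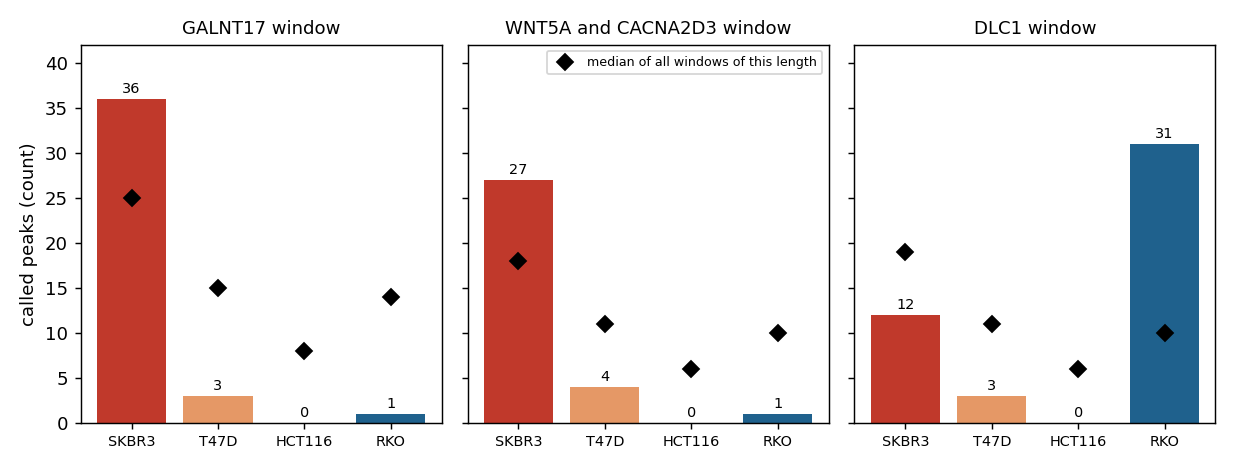
Number of called peaks per line in each window (bars, 1 library each), with the median count of all windows of the same length in that line (diamonds). SKBR3 bars reach 36 and 27 against medians of 25 and 18, the RKO bar in the DLC1 window reaches 31 against 10, and the bars of the other lines stay below their medians.

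Of the 94 peaks called by the cluster's line in its own window, 85 had no overlapping call in another line. In the GALNT17 window these were 33 of 36 SKBR3 peaks (91.7%, 95% interval 77.5 to 98.2), where the whole SKBR3 list has 45.8%. In the WNT5A and CACNA2D3 window they were 24 of 27 (88.9%, 70.8 to 97.6). In the DLC1 window they were 28 of 31 RKO peaks (90.3%, 74.2 to 98.0), where the whole RKO list has 37.2%. By line, SKBR3 peaks of the GALNT17 window met a T47D call at 2 of 36 positions, an RKO call at 1 and an HCT116 call at 0, where the whole list has 47%, 29.8% and 24.8%. At WNT5A they met a T47D call at 3 of 27 and none of RKO or HCT116. RKO peaks of the DLC1 window met a SKBR3 call at 3 of 31 positions, a T47D call at 2 and an HCT116 call at 0, where the whole RKO list has 50.4%, 49.2% and 39.8%. The windows were chosen on this property, and the intervals treat neighbouring peaks of 1 library as if they were independent. Nothing is therefore read from the gap between these shares. The same holds for the strong peaks. Of the 13 SKBR3 peaks of the GALNT17 window with a −log10 q of at least 10, 11 had no call elsewhere, and so did 5 of 5 in the WNT5A window, where such peaks of the whole list have 18.4%. For DLC1 it was 6 of 8 RKO peaks, against 10.8% in the list.

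The strongest SKBR3 peaks at GALNT17 were spread over the middle of the window. The highest lay at 70813509 to 70814247 on chromosome 7 and was 739 bp wide, with a pileup of 43 tags and a fold enrichment of 17.3 over the local background. This put it at percentile 97.5 of the SKBR3 list by pileup. The next, at 70716741 to 70717056, had a pileup of 37 and the highest fold of the window, 18.6, at percentile 99.1 by fold. Neither position was called in T47D, HCT116 or RKO. The remaining 3 of the leading 5 were at 70773105 to 70773432 (pileup 34), 70702959 to 70703216 (pileup 32) and 70879454 to 70879919 (pileup 30). The 5 peaks spanned 177 kb, and only the one with pileup 32 met a call in another line. That call was a T47D peak of 110 bp, the shortest length MACS allowed there, with a pileup of 4 at percentile 4.21 of the T47D list.

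Other shared positions in the GALNT17 window lay at its far end. At 71198124 to 71198546 SKBR3 had a peak with a pileup of 23 at percentile 87.5, and T47D had one with a pileup of 12 at percentile 52.3. This was the strongest T47D peak of the window, and it lay 1596 bp inside the window edge. At 71098610 to 71098919 a SKBR3 peak with a pileup of 9 overlapped the single RKO peak, which had a pileup of 3 at percentile 15.3. The widest SKBR3 peak, 750 bp at 70596333 to 70597082, had a pileup of 28 at percentile 91.4 and no call in the other lines. It stood 217 kb before the highest peak and 22124 bp from its nearest earlier neighbour, itself a call with a pileup of 3.

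The SKBR3 peaks of the GALNT17 window were not uniform in strength. Their pileup ran from 2 to 43 with a median of 10, and the median percentile was 63.4 (interquartile range 36.6 to 83.9). Above percentile 90 there were 6 of 36 peaks and below percentile 25 another 6. The median width was 192 bp, close to the list median of 199 bp, and 5 peaks had the minimum width of 117 bp. With summits at most 12500 bp apart joined, the 36 peaks fell into 19 clusters, the largest with 9 peaks over 52.6 kb between 70684057 and 70736624. Of these 9 peaks, 8 were called in SKBR3 only. In the whole SKBR3 list 814 of 51748 clusters held more peaks. The 19 peaks in clusters of 3 or more had a median pileup of 11 and width of 243 bp, against 5 and 181 bp for the other 17. The highest peak of the window was among those 17, since its nearest SKBR3 summits lay 40346 bp before and 12611 bp after it.

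Around the GALNT17 window the pattern changed by degrees. In the 750 kb before it SKBR3 had 51 peaks, T47D 24, RKO 6 and HCT116 0. In the 750 kb after it the counts were 16, 7, 2 and 0. SKBR3 peaks were thus denser before the window than in it, and T47D peaks were fewest inside it. The last SKBR3 peak before the window had a pileup of 3, as had the first one inside it. The last inside it had a pileup of 23 and the first one after it 14.

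At WNT5A and CACNA2D3 the SKBR3 peaks were weaker and more scattered. The median pileup was 5, at percentile 36.6 of the SKBR3 list (interquartile range 20.5 to 57.6), so most calls in this window were below the middle of the list. Only 2 of 27 peaks were above percentile 75, and 7 were below percentile 25. Joined in the same way, the 27 peaks fell into 19 clusters with at most 3 peaks each, and neighbouring summits were a median of 17.1 kb apart, against 12.48 kb on chromosome 3 as a whole. SKBR3 summits of the GALNT17 window were also further apart than on their chromosome, at a median of 12.6 kb against 11.2 kb on chromosome 7. With a joining distance of 25 kb the largest group had 10 peaks over 126 kb.

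The 5 SKBR3 calls with the highest pileup at this locus lay near one another, towards the WNT5A side. The highest peak, 750 bp wide at 55403243 to 55403992 on chromosome 3, had a pileup of 33 and a fold of 14.2, at percentile 94.2 by pileup. The peak 39.0 kb before it, at 55364345 to 55364773, had a pileup of 21 and the highest fold of the window, 15.6. Those at 55450393 to 55450657, 55461866 to 55462155 and 55436986 to 55437610 had pileups of 13, 12 and 11. Their percentiles were lower, at 72.6, 69.9 and 67.0. These 5 peaks spanned 97.8 kb, and 0 of them had a call in T47D, HCT116 or RKO.

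The SKBR3 calls with the highest pileup in this window were not among those it shared with T47D. At 55519249 to 55519365 SKBR3 had a pileup of 9 and T47D, at 55519250 to 55519373, a pileup of 8. At 55085617 to 55085878 the pileups were 5 in SKBR3 and 7 in T47D, and at 55539246 to 55539491 they were 3 and 4. Pileups of different libraries are not on one scale. Within the lists the percentiles were 59.8 and 35.0 at the first position, 36.6 and 28.8 at the second and 13.7 and 4.21 at the third. The remaining T47D call, with a pileup of 5, and the only RKO call, at 55510686 to 55510886 with a pileup of 3, met no SKBR3 peak.

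The surroundings of the WNT5A window were similar in SKBR3. SKBR3 had 23 peaks in the 550 kb before it and 32 in the 550 kb after it, against 27 inside. T47D had 4 and 9 and RKO 4 and 0 in the same flanks, while HCT116 had 2 and 0. SKBR3 was thus called more often than the other lines in both flanks too. The last SKBR3 peak before the window had a pileup of 16 and the first inside it 4. The last inside it and the first after it each had a pileup of 3.

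In the DLC1 window the highest RKO peak was shared, and the dense group that followed was not. The shared peak lay at 12990655 to 12991064 on chromosome 8 and had a pileup of 44 in RKO, at percentile 98.0 of its list. At the same position SKBR3 had a pileup of 25, at percentile 89.2, and T47D one of 51, at percentile 93.4. It was the highest peak of the window in all 3 of these lines, with folds of 14.9 in RKO, 17.7 in SKBR3 and 23.8 in T47D. HCT116 had no call there. A second region of 3 lines, at 12938083 to 12938189 in RKO, was weak, with pileups of 6 in RKO and 4 in both SKBR3 and T47D.

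Beyond the shared peak the RKO calls ran on to 412 kb from it, most of them without a counterpart. A group of 10 RKO peaks lay between 13198863 and 13230491, over 31.6 kb, and 0 of the 10 overlapped a call in another line. In the whole RKO list 109 of 39239 clusters held more peaks. The highest of the group, at 13224248 to 13224520, had a pileup of 40 at percentile 96.8, and the peak at 13210729 to 13211023 had a pileup of 25 at percentile 87.8. SKBR3 had 1 call within the span of this group, at 13225887 to 13226021 with a pileup of 5, and it fell between RKO peaks. The RKO group stood 208 to 239 kb from the shared peak.

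Between the shared peak and this group were smaller RKO groups. At 13133961 to 13134316 RKO had a pileup of 31, at percentile 92.3, and SKBR3 a weak call with a pileup of 4, at percentile 27.3. A neighbouring pair at 13051069 to 13051403 and 13051651 to 13052075 had pileups of 23 and 27, with summits 671 bp apart and no call in another line. Past the group of 10 the RKO peaks were low, with pileups of 12 at 13248655 to 13248885 and of 2 to 4 from there to the end of the window. The 23 RKO peaks in clusters of 3 or more had a median pileup of 14 and the other 8 a median of 3. The median percentile over all 31 was 62.8 by pileup (interquartile range 22.5 to 80.7). RKO summits in the window were a median of 8.76 kb apart, against 20.1 kb on chromosome 8 as a whole.

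SKBR3 had its own small group at the start of the DLC1 window. There 4 SKBR3 peaks between 12953781 and 12959311, with pileups of 3 to 4, and 1 at 12979674 to 12979845 with a pileup of 6 met no call in another line. Of the 12 SKBR3 peaks in the window, 8 were called in SKBR3 only (66.7%, interval 34.9 to 90.1). The whole SKBR3 list has 45.8%, which lies inside this interval. In the 580 kb before the window RKO had 22 peaks, SKBR3 19, T47D 15 and HCT116 10. In the 580 kb after it the counts were 1, 1, 2 and 0. RKO calls thinned out towards the end of the window. The last one inside stood 97.5 kb before the edge with a pileup of 3, and the first one after it stood 12.7 kb past the edge with a pileup of 4. The first RKO peak inside the window and the last one before it both had a pileup of 6.

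**Figure D3:**
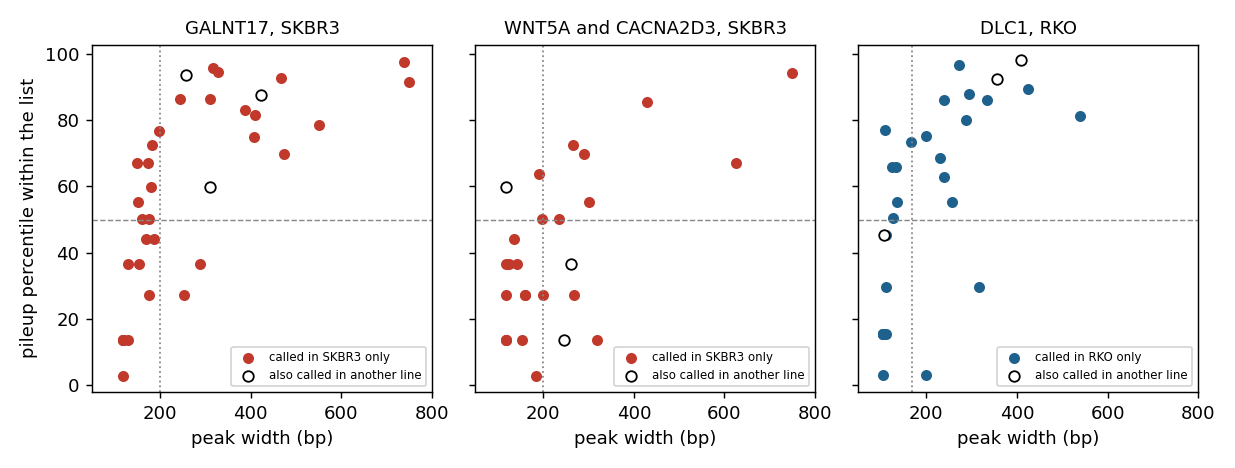
Width (bp) and pileup percentile of each peak of the cluster's line in its window. Filled points were called in that line only and open points also in another line; the dashed line marks percentile 50 and the dotted line the median width of the list (199 bp in SKBR3, 168 bp in RKO). The peaks wider than 400 bp all lie above percentile 66, and the open points are spread over the scale.

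Widths in the windows were near those of the lists. RKO peaks of the DLC1 window were 105 to 540 bp wide with a median of 167 bp, against 168 bp in the list, and only 1 of 31 reached the widest 10% of the list (466 bp or more). In the GALNT17 window 5 of 36 SKBR3 peaks reached the widest 10% of their list (456 bp or more), and in the WNT5A window 2 of 27. The minimum width of 105 bp, the modelled fragment length in RKO, was found in 6 of 31 DLC1 peaks. Calls of minimum width made up 5 of 36 and 6 of 27 of the SKBR3 peaks at GALNT17 and WNT5A.

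The local background that the caller used was higher in the DLC1 window than in the others, each as a multiple within its own list. It is estimated over 10 kb around each peak and includes tags of the peaks themselves. What set its level in these windows was not tested. RKO peaks of the DLC1 window had a median background of 9.28 times the genome-wide level, against 1.87 times over the RKO list, and in the group of 10 it ranged from 9.28 to 23.5 times. As a result pileup and fold ranked these peaks differently. The peak at 13228387 to 13228494 had a pileup of 16 at percentile 77.0 and a fold of 4.51 at percentile 39.4. Over the 31 RKO peaks the median percentile was 62.8 by pileup and 51.3 by fold. SKBR3 peaks had a median background of 2.60 times the genome-wide level at GALNT17 and 1.15 times at WNT5A, against 1.75 times over the SKBR3 list. At WNT5A 11 of 27 SKBR3 peaks were at the genome-wide level and at GALNT17 9 of 36, where the whole SKBR3 list has 32.7%. At DLC1 it was 3 of 31 RKO peaks, where the whole RKO list has 29.98%. In the 5 Mb on each side of the DLC1 window the RKO median was 1.69 times. The SKBR3 median was 2.63 times around the GALNT17 window, near the level inside it, and 1.92 times around the WNT5A window.

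**Figure D4:**
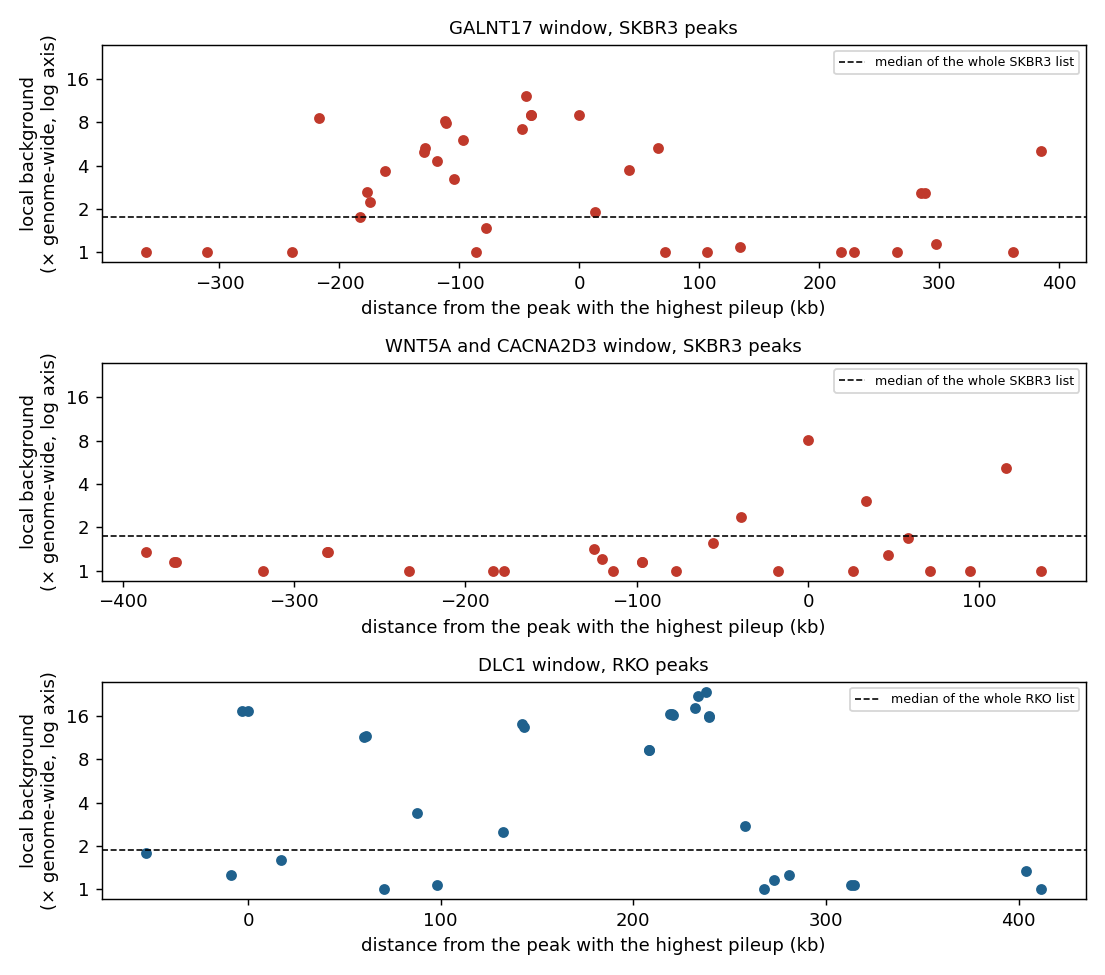
Local background at each peak of the cluster's line, as a multiple of the genome-wide level (log axis), against distance from its highest peak (kb). RKO peaks 208 to 239 kb from the highest DLC1 peak lie between 9.28 and 23.5 times, while 11 of 27 SKBR3 peaks at WNT5A lie at the genome-wide level; dashed lines are the medians of the whole lists.

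Loci most like these were sought as the 500 kb windows, on a fixed grid of 5730, with the most peaks called in 1 line only. For RKO the stretch at 13.0 to 13.5 Mb of chromosome 8 ranked 2, with 26 peaks called in RKO only. First was chromosome 12, 66000001 to 66500000, with 28, where RKO had 44 peaks in all, HCT116 17, SKBR3 12 and T47D 10. The others were chromosome 1, 16000001 to 16500000, with 24, and chromosome 9, 133500001 to 134000000 and 140000001 to 140500000, with 23 each. In these 4 windows the other lines also had 10 to 80 peaks each. In the stretch at 13.0 to 13.5 Mb SKBR3 had 5, T47D 1 and HCT116 0. The DLC1 window was chosen for few calls in the other lines, so nothing is read from this. The grid window before that stretch, 12500001 to 13000000, holds the start of the DLC1 window. It ranked 844, with 7 peaks called in RKO only. There RKO and SKBR3 had 19 peaks each, T47D 13 and HCT116 6. For SKBR3 the windows with most were chromosome 20, 55500001 to 56000000, with 43, chromosome 20, 48500001 to 49000000, with 40, chromosome 8, 80500001 to 81000000, with 39, and chromosome 1, 5500001 to 6000000, and chromosome 20, 56000001 to 56500000, with 37 each. The stretch at 70500001 to 71000000 on chromosome 7 had 26 and ranked 110, and that at 55000001 to 55500000 on chromosome 3 had 24 and ranked 177. On chromosome 7 the grid window before that stretch had 24 and ranked 177, and the one after it had 10 and ranked 2004. On chromosome 3 the grid window before had 16 and ranked 812, and the one after had 22 and ranked 267.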

How the data were processed

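The submitters' processing notes name Bowtie2 2.4.1, MACS3 3.0.0b3 and the hg19 build for these single-end reads of 60 bp. Per the file headers, the authors called narrow peaks on each library separately at a q cutoff of 0.1, with no control library and 1 tag kept per position. The headers name no shift of reads to the cut site. The deposited values are the pileup signal at the summit, the fold enrichment (a ratio to local background) and both p-values and q-values as −log10, all within 1 library. They were ranked only within their own list. T45D is the input name in the header of the T47D list, which was assigned by its sample.

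Peaks on chromosomes 1 to 22 and X were kept; 0.975% to 1.68% of the deposited peaks lay elsewhere. Members were the peaks with summits in 3 windows given for this work. Peaks overlapping by at least 1 bp counted as called in both lines, and summits at most 12500 bp apart were joined into clusters. The windows were compared with windows of the same length tiled in steps of 0.5 window lengths over these chromosomes, leaving out those with no peak in any line. The local background was recovered as (pileup + 1) / fold − 1. Intervals are exact Clopper-Pearson 95% intervals and cover counting error only. They treat the peaks of a window as independent, although peaks are not replicates of a line. No test between lines was made, since each has 1 library.

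The named peaks are the 5 with the highest pileup of each cluster's line in its window and any peak called in all 4 lines; others singled out were chosen after their values were seen. The members, the windows and the gene lists were chosen with earlier results of these data known. No hg19 annotation was used, so distances to transcript starts, the cell type markers and the related genes listed for these families were not analysed here. The gene symbols, their neighbours and the promoter sequences are from RefSeq on GRCh38.p14, and no coordinates were carried between builds. The code was tested on simulated lists: 0 of 1233 peaks were given wrong calls in the other lines, and 0 of 20 planted clusters were missed. The simulated regions were far apart and shared peaks lay at nearly the same place. Near misses and slight overlaps were therefore not tried, and this checks the code only. Python 3.11.15, pandas 2.3.3, numpy 2.4.6, scipy 1.17.1 and matplotlib 3.10.9 were used.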

Additional observations from a re-analysis of the deposited data

How the results depend on the processing

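Of 57 alternative values for 15 results, 41 stayed within 1.5 times the reported count, or within the 95% interval of the reported share or median. Restricted to a −log10 q of 5 or more, the counts fell to 22 SKBR3 peaks at GALNT17, 10 at WNT5A and CACNA2D3 and 17 RKO peaks at DLC1, and with 10 or more to 13, 5 and 8. With every list shortened to the 39899 strongest peaks by q they were 16, 6 and 18, against at most 1 in any other line; a stricter list holds fewer peaks by construction. For WNT5A and CACNA2D3 the share of SKBR3 peaks called in no other line became 100% in each of these settings (10 of 10, 5 of 5 and 6 of 6). So it did with a −log10 q of at least 5 in every list (10 of 10). At GALNT17 the 4 shares, in the same order, were 86.4%, 84.6%, 93.8% and 95.5%, and for RKO at DLC1 82.4%, 75%, 94.4% and 94.1%. Over the whole lists, peaks with a −log10 q of at least 10 had 18.4% in SKBR3 and 10.8% in RKO. With 5 or more, whole-list shares were not computed. With a joining distance of 5 kb the largest cluster held 4 peaks at GALNT17 and 5 at DLC1, and with 25 kb it held 10 at WNT5A. Leaving out the HCT116 list, an alternative added after seeing the data, changed none of the 3 shares, as HCT116 had no call in the windows; the shares over the whole lists then became 47.5% for SKBR3 and 41.3% for RKO. With lists of equal length the latter were 31.8% and 31.1%. Peaks at promoters were not counted under any distance. No paired analysis was possible because each line has 1 library. Calls with a pileup of 2 to 4 tags are at the edge of what this depth can show.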
